A study of Mus musculus with 4 samples.

Results

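The genes of the AP-1 transcription factors were examined in chromatin accessibility maps of primary osteoblasts, the bone-forming cells. The 10 genes were *Fos*, *Fosb*, *Fosl1*, *Fosl2*, *Jun*, *Junb*, *Jund*, *Batf*, *Batf3* and *Atf3*. Every accessible region that overlapped a gene or the 25 kb on either side of it was taken, which gave 152 of the 255864 regions of the count table. Of these, 13 had their centre within 1 kb of a start of the gene's own protein-coding transcripts and were called promoter regions. The other 139 were called flanking regions, and they included regions inside the genes and 17 promoter regions of neighbouring genes. Each gene had at least 1 promoter region, and no region belonged to more than 1 of the genes.

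Open DNA had been mapped by ATAC-seq, which uses a transposase to insert sequencing adapters where chromatin is accessible, in cells of 3-day-old C57BL/6 mice. The wild type group (WT) was compared with TCKO mice, which carried Prx1-Cre together with floxed alleles of *Tet1* (Tet1fl/fl), *Tet2* (Tet2fl/fl) and *Tet3* (Tet3fl/fl), the genes of the TET enzymes that oxidise 5-methylcytosine. Prx1-Cre acts in limb and part of the cranial mesenchyme, so cells of other origin in a culture keep their *Tet* genes, and whether the WT mice carried floxed alleles was not given in the sources used here. The labels listed 2 samples per genotype (4 in all) although a protocol text spoke of 3 repeats, and the table held a single merged column for each genotype, so the genotypes were compared without replicate error and without a test. Fewer cells of a type and less open DNA per cell cannot be told apart in such bulk material, and accessibility is not a measure of expression.

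AP-1 is a dimer of basic leucine zipper proteins. A Jun protein pairs with itself, with a Fos protein or with a Batf or Atf protein, and the dimer binds the sequence TGACTCA or its complement TGAGTCA. Several of the genes are immediate early genes, which respond within minutes to growth factors and mechanical strain, and in bone Fos family proteins are known for their part in osteoblast and osteoclast differentiation.

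Total counts over all regions were 56898657 in WT and 34608167 in TCKO, with a median of 86 and 60 counts per region. TCKO counts were multiplied by 1.644 to match the WT total, and every ratio below is TCKO over WT on the log2 scale after 1 had been added to both counts, with a 95% Wilson interval in parentheses that covers counting error only. Reads were not tagged as molecules, so the intervals are too narrow by an unknown amount. Osteoblast markers had a promoter region at 8 of 8 genes, with summed counts of 112.4 CPM (counts scaled to a common total in each genotype) in WT and 101.2 in TCKO. Markers of macrophages or osteoclasts had a promoter region at 5 of 7 genes (12.8 and 16.8 CPM), endothelial markers at 4 of 6 (17.2 and 23.2) and chondrocyte markers at 4 of 5 (58.1 and 56.6). Skeletal muscle markers had a promoter region at 0 of 5 genes. Among the macrophage or osteoclast markers, *Ptprc*, which defines blood cells, and *Ctss* had none. *Ptprc* still had 13 flanking regions, with 2944 counts in WT and 1553 in TCKO, so the lack of a promoter region does not show that blood cells were absent. Of the 5 macrophage or osteoclast markers with a promoter region, 3 (*Csf1r*, *Cd68* and *Acp5*) had a ratio with an interval above 0, against 12.0% of all genes. The intervals of *Spi1* and *Adgre1* included 0. Of the 4 endothelial markers with a promoter region, 3 (*Cdh5*, *Pecam1* and *Kdr*) had an interval above 0 and 1 (*Tek*) below 0. Of the osteoblast markers 0 had an interval above 0 and 2 below 0, against 38.0% of all genes below 0. The chondrocyte markers had 0 on either side. The part of these differences between the cultures in the results was not tested.

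The first comparison asked whether the promoters of AP-1 genes and the DNA around them differed between the genotypes in the same way. The summed promoter count was relatively lower in TCKO than the summed flanking count at 9 of the 10 genes, *Fos* being the exception. Among all protein-coding genes 62.8% had the promoter ratio below the flanking ratio. The median difference was -0.11 on the log2 scale for the AP-1 genes and -0.084 for 15598 genes. The interval of the difference lay below 0 at 5 AP-1 genes (*Fosb*, *Fosl2*, *Jun*, *Junb* and *Batf*), which was the case for 34.5% of all genes. It lay above 0 at *Fos* alone, against 14.7% of all genes. This difference does not depend on the factor that scales the libraries, but it does depend on the level: once the trend of the ratio with count was removed by loess, 6 of the 10 AP-1 genes and 52.8% of all genes had the promoter below the flank.

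Taken by themselves, the promoters of the AP-1 genes ranged from a log2 ratio of -0.48 at *Batf* to 0.071 at *Batf3*. The interval was below 0 at 6 of the 10 (*Fos*, *Fosb*, *Jun*, *Junb*, *Jund* and *Batf*), against 38.0% of 15708 genes with a promoter region. It was above 0 at none, against 12.0% of those genes. The median over all genes was -0.09. Summed flanking regions ranged from -0.33 at *Fos* to 0.12 at *Fosl2*. Their interval was below 0 at 4 genes (*Fos*, *Fosb*, *Junb* and *Jund*), against 29.3% of 19728 genes, and above 0 at 4 (*Fosl1*, *Fosl2*, *Jun* and *Batf*), against 34.4%. Scaling by the background level that the peak caller used gave a factor of 1.078, the median of all regions was -0.54, and the flanking sums of these last 4 genes were below 0.

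**Figure D1:**
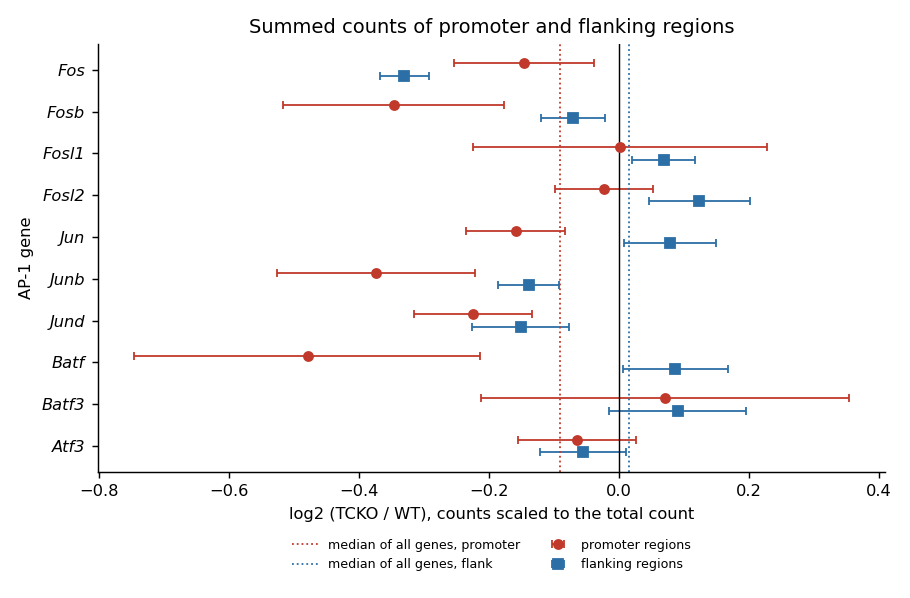
Log2 ratio of TCKO over WT for the summed promoter regions (circles) and the summed flanking regions (squares) of each AP-1 gene, with 95% counting intervals as bars and the medians of all genes as dotted lines. The promoter lies left of the flank at every gene but *Fos*, and the distance between them is widest at *Batf*.

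Promoter regions of the AP-1 genes had a median of 65.0% G and C and 15 CpG in the 200 bp around the centre. Flanking regions had 52.5% and 4 CpG. Both were above the medians of all genes, which were 61.0% and 12 CpG for promoter regions and 48.5% and 2 CpG for flanking regions. None of the 13 promoter regions differed by 2-fold or more between the genotypes, where the 22831 promoter regions of all genes had 1.27% at or past this fold on the lower side in TCKO and 2.71% on the higher side. Scaled by the background of the peak caller, 3 of the 13 were past 2-fold lower, at *Batf* (-1.08), *Batf3* (-1.12) and *Atf3* (-1.14). Those at *Batf3* and *Atf3* had no summit in the TCKO list, so they were in the table only through WT. At this scaling the median of the promoter regions of all genes was itself -0.68. Their share past 2-fold at this scaling was not computed, so the 3 regions cannot be set against it.

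Among the flanking regions of the AP-1 genes a 2-fold or larger difference was found at 10 of 139, of which 4 (2.88%) were lower in TCKO and 6 (4.32%) higher. The shares among 158690 flanking regions of all genes were 4.8% lower and 11.7% higher, and among all 255864 regions 4.51% and 12.3%. The balance of directions turns with the scaling. With the peak caller background 26 of the 152 regions were lower and 1 higher, where the shares among flanking regions of all genes were 21.2% and 3.58%. Without scaling 40 were lower and 0 higher, where those shares were 26.9% and 2.88%. These counts cover promoter and flanking regions together and the shares cover flanking regions alone, so they do not have the same base. With counts scaled to the WT total, both shares at the AP-1 loci lay below the background. The regions of these loci were deeper, at a median of 303 counts summed over the genotypes against 146, and regions with few counts pass a fold more often. Among flanking regions with at least 200 counts, 2.30% of 87 regions at the AP-1 loci were lower and 1.15% higher, against 3.83% and 4.47% at all genes.

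**Figure D2:**
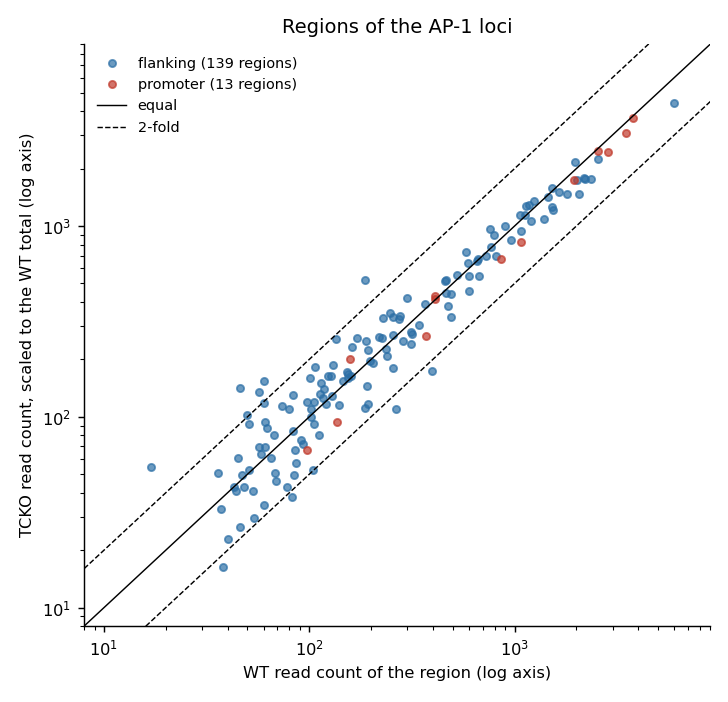
WT read count against the scaled TCKO read count of each of the 152 regions, both on log axes, with promoter regions in red and flanking regions in blue; TCKO counts are scaled to the WT total, and another scaling factor shifts all points up or down together. The 13 promoter regions lie between the dashed 2-fold lines, and 10 flanking regions lie beyond them.

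The 10 regions past 2-fold are shown because they carried the largest differences at these loci. Of them, 3 are among the 8 lowest and 8 highest regions with at least 200 counts (at *Jun*, *Fos* and *Atf3*), and the other 7 have fewer counts and were chosen after their values were seen. Sequences are from the plus strand of GRCm38, whole or, where a region was longer than 300 bp, the 200 bp at its centre. Of the 6 higher regions 4 (*Jun* at 11.1 kb, *Fosb*, *Batf* and *Batf3*) had no summit in the WT list, and all 4 lower regions had none in the TCKO list, so these were in the table only through the genotype in which they were high. Their values and sequences are therefore a description. Capitals mark the AP-1 consensus (TGACTCA or TGAGTCA) and the RUNX core (TGTGGT or ACCACA), searched on both strands. The 6 higher regions were:

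Jun, 16.6 kb downstream of the start, chr4:95035543-95035742: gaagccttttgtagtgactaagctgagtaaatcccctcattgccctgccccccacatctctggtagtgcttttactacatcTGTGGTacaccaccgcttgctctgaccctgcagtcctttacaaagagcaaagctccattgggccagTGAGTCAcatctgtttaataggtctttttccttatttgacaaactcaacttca

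Jun, 11.1 kb downstream, chr4:95040975-95041205: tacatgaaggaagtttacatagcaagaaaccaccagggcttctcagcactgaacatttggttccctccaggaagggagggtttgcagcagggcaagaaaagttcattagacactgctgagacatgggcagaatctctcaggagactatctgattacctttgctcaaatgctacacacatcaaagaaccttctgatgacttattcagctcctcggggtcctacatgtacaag

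Fosb, 22.1 kb upstream, chr7:19332074-19332224: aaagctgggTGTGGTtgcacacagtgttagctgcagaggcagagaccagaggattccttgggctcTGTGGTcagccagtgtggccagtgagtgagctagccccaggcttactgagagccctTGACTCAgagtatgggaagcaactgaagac

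Batf, intron, 6.8 kb downstream, chr12:85693377-85693478: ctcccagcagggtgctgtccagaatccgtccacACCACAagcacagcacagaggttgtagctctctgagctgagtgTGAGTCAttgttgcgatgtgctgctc

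Batf3, 29.8 kb downstream, chr1:191128049-191128235: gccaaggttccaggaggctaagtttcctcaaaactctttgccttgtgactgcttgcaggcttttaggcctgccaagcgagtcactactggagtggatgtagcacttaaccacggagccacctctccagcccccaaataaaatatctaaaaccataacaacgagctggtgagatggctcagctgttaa

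Atf3, 28.9 kb downstream, chr1:191154375-191154587: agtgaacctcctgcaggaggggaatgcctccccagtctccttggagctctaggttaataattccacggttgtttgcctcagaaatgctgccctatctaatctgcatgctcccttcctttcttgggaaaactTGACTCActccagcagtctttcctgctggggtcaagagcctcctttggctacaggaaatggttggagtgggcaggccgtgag

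The 4 lower regions held neither sequence in the stretches shown:

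Fos, 6.1 kb upstream, chr12:85467678-85467877: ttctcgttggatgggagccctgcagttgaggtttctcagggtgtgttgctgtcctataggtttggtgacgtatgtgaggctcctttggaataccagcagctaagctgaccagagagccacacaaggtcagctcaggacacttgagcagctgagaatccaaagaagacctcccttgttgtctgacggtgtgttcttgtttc

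Atf3, intron, 2.9 kb before the nearest start, chr1:191186156-191186369: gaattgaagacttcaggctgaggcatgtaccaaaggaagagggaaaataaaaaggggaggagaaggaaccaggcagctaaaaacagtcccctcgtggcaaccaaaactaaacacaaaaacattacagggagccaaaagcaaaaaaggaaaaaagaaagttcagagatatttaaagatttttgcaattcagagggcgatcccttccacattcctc

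Batf, 41.6 kb downstream, chr12:85728261-85728371: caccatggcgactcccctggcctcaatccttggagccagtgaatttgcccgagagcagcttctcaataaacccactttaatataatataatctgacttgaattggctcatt

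Batf3, 24.6 kb downstream, chr1:191122884-191123050: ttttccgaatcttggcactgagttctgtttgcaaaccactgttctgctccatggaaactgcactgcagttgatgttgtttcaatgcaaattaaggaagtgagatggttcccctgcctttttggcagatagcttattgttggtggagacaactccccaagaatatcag

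Within the 200 bp at the centre, 4 of the 6 higher regions held the AP-1 consensus and 3 held the RUNX core. Among the flanking regions of all genes, 33.1% of those at least 2-fold higher and 4.97% of those at least 2-fold lower held the AP-1 consensus. The RUNX core was in 22.8% and 24.0% of them. A match is a stretch of letters and does not show that a factor was bound.

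The flanking regions as a whole were also compared by the AP-1 consensus. It was present in 24 of the 139 (17.3%), close to the 19.0% of flanking regions of all genes. The 24 regions with it had a median log2 ratio of 0.29 and 19 of them were above 0. The 115 without it had a median of -0.042 and 53 were above 0. The 95% intervals of these medians, 0.0145 to 0.457 with and -0.166 to 0.068 without the consensus, overlapped. Over all genes the medians were 0.41 with and 0.0003 without, so the regions of the AP-1 loci lay in the order seen across the genome. The medians at the AP-1 loci had the same order on both sides of 200 counts, again with overlapping intervals. Under 200 counts they were 0.32 with the consensus (10 regions, interval of the median -0.41 to 1.35) and -0.016 without (42 regions, -0.26 to 0.18). The highest of these 10, at *Batf* and *Fosb*, were in the table only through TCKO. At 200 counts or more they were 0.29 (14 regions, 0.0008 to 0.41) and -0.051 (73 regions, -0.18 to 0.075).

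**Figure D3:**
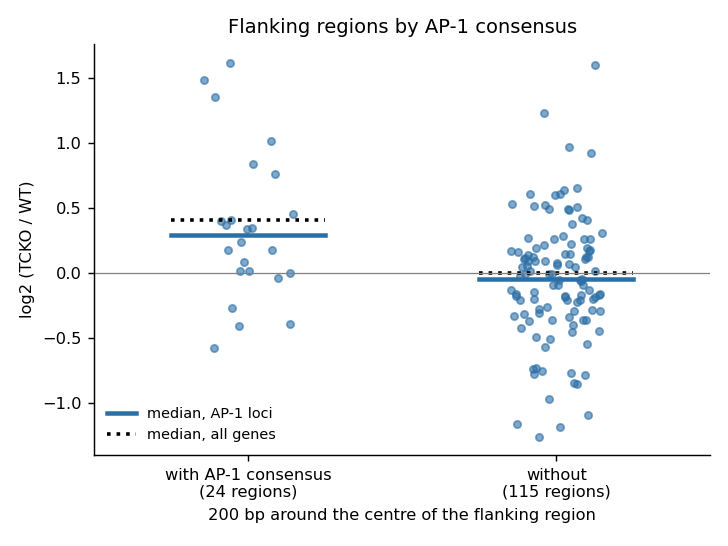
Log2 ratio of each flanking region of the AP-1 genes, split by whether the 200 bp at its centre hold the AP-1 consensus, with medians of these loci as solid lines and of all genes as dotted lines. The 24 regions with the consensus centre on 0.29 and the 115 without it on -0.042.

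None of the 13 promoter regions had the AP-1 consensus in its central 200 bp, where 5.69% of promoter regions of all genes did. Over their whole length 3 of the 13 did (23.1%), at *Fosl1*, *Fosl2* and *Atf3*, beside 11.9% of promoter regions of all genes. The related cyclic AMP response element TGACGTCA was in the central window of none of the 152 regions, against 0.397% of all regions. RefSeq promoter windows, 250 bases before to 50 after a start, matched 9 of the 10 genes (*Fosl1* did not match). No window had the AP-1 consensus (5.20% of 32851 windows did), TGACGTCA (1.79%) or a CArG box, the site of serum response factor (1.63%). In the central 200 bp of the accessible promoter regions a CArG box was present in 1 of 13, that of *Fosb*, and in 0.613% of promoter regions of all genes. Whole promoter regions were searched for the AP-1 consensus alone. A CArG box or other site outside these windows would be missed, so a promoter without a match here may still hold one. *Batf* alone had the RUNX core, 149 and 56 bases before the start, which 16.8% of windows had. *Jun* alone had TGACATCA, a variant site that Jun and Atf proteins are known to bind, 45 bases before the start (3.62% of windows). The 250 bases before the *Jun* start are shown on the minus strand of GRCm38 with this site in capitals.

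Jun promoter, chr4:95052223-95052472: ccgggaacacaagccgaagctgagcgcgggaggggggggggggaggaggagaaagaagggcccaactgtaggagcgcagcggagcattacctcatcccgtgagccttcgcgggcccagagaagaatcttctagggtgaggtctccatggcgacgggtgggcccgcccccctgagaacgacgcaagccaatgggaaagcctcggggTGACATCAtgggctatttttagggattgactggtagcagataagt

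Levels can be compared between genes only per length, and for the promoter regions they are given as CPM per kb. *Fosl2* had the highest level, 59.5 in WT and 58.6 in TCKO. *Jun* followed with 52.7 and 47.2, *Fos* with 52.0 and 47.0, *Junb* with 48.4 and 37.4 and *Jund* with 43.3 and 37.0. *Atf3* (28.5 and 27.3), *Fosb* (25.6 and 20.1) and *Fosl1* (18.6 and 18.6) were lower, and *Batf3* (8.49 and 8.92) and *Batf* (7.95 and 5.70) were lowest. In the absence of replicates, neighbours in this order such as *Jun* and *Fos* cannot be told apart.

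*Fos* (ENSMUSG00000021250, chr12:85473890-85477273, plus strand) encodes the founding Fos protein, which binds DNA only with a Jun partner. At its promoter region (chr12:85473474-85474128) WT had 1939 counts and TCKO 1066 (-0.15, -0.25 to -0.038). The 12 flanking regions together held 17361 and 8400 counts, a ratio of -0.33 (-0.37 to -0.29), and 11 of the 12 were below 0. The *Fos* locus was therefore the only one whose surroundings were lower relative to WT than its promoter, by 0.18 (0.070 to 0.30). The upstream side carried most of this. Its strongest region, 18.4 kb upstream (chr12:85454870-85456100), went from 6008 to 2683 counts (-0.45, -0.51 to -0.38), and the region 1.6 kb upstream from 2069 to 893 (-0.49, -0.61 to -0.38). The region 6.1 kb upstream, printed above, had 397 counts in WT and 106 in TCKO (-1.18, -1.50 to -0.88) and 3 summits in the WT peak list with none in the TCKO list. A single region, 13.1 kb downstream, was higher, with 298 and 255 counts (0.49, 0.25 to 0.73). If the promoter was widened to 2 kb the region at 1.6 kb joined it and the promoter minus flank difference became -0.0062, and after loess the promoter ratio itself was 0.0068.

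*Fosb* (ENSMUSG00000003545, chr7:19302696-19310051, minus strand) encodes a second immediate early Fos protein, whose short splice form is known to raise bone mass in mice. At its promoter region WT had 855 counts and TCKO 409 (-0.35, -0.52 to -0.18). The 17 flanking regions held 8989 and 5209 (-0.070, -0.12 to -0.021), and promoter minus flank was -0.28 (-0.45 to -0.099). The flanking region with most counts, 9.8 kb upstream, had 2004 and 1055 (-0.21, -0.32 to -0.10). The largest intragenic region, 1.1 kb inside the gene, had 1529 and 968 counts (0.058, -0.058 to 0.17), and when the promoter was widened to 2 kb to take it in, the difference turned to 0.045. The region 22.1 kb upstream, with the AP-1 consensus and the RUNX core printed above, had 60 counts in WT and 94 in TCKO (1.35, 0.90 to 1.83) and a summit in the TCKO list alone. Its neighbour at 23.0 kb, also with the AP-1 consensus and with 654 and 398 counts, was at 0.0008. Of the other upstream regions with the consensus, the one at 6.9 kb was at 0.017 and the one at 17.2 kb at -0.39 (-0.60 to -0.19).

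*Fosl1* (ENSMUSG00000024912, chr19:5447547-5455946, plus strand) encodes Fra-1, which lacks the transactivation domain of Fos and is known to promote bone matrix formation. WT had 412 counts at its promoter region and TCKO 251 (0.0023, -0.22 to 0.23). The 16 flanking regions held 8944 and 5707 (0.069, 0.021 to 0.12). Promoter and flank were not separable at this depth, with a difference of -0.066 (-0.30 to 0.17). Among its flanking regions 6 were promoters of other genes, and the one with most counts, at *Drap1*, had 1243 and 824 (0.12, -0.0028 to 0.25). The region inside the gene, in an intron and with the AP-1 consensus, had 188 and 152 (0.41, 0.10 to 0.72). The highest ratio was at an exon of *Ctsw*, a gene for a lymphocyte protease, 19.4 kb downstream, with 135 and 156 counts (0.92, 0.59 to 1.26).

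*Fosl2* (ENSMUSG00000029135, chr5:32135801-32157842, plus strand) encodes Fra-2, a regulator of osteocalcin and collagen genes in osteoblasts. Its promoter region was the deepest of all 13, with 3761 counts in WT and 2252 in TCKO (-0.023, -0.098 to 0.053). It took 53.1% of the counts of the locus in WT and 50.6% in TCKO. The 14 flanking regions held 3320 and 2200 counts (0.12, 0.046 to 0.20), the highest flanking ratio of the 10 genes. Promoter minus flank was -0.15 (-0.25 to -0.038), which loess turned to 0.066. The strongest flanking region, 2.0 kb upstream, had 1130 and 694 counts (0.014, -0.12 to 0.15). A region in a coding exon 17.3 kb from the start had 60 and 72 counts (0.97, 0.49 to 1.47). It had no summit in the WT list, so it was in the table only through TCKO. The region 25.3 kb downstream of the start had 170 and 157 (0.60, 0.29 to 0.91).

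*Jun* (ENSMUSG00000052684, chr4:95049034-95052222, minus strand) encodes the Jun protein, the common partner of Fos proteins, and its product is known to act on its own promoter through the site shown above. The main promoter region (chr4:95051960-95052942) went from 3506 to 1872 counts (-0.19, -0.27 to -0.11). The other promoter region, over the untranslated exon, had 411 and 263 (0.073, -0.15 to 0.30). Together the promoter regions were at -0.16 (-0.23 to -0.082), and the 9 flanking regions, with 4071 and 2615 counts, at 0.079 (0.0079 to 0.15). After loess the summed promoter ratio was 0.022.

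The flank of *Jun* was divided by side. All 6 downstream regions were above 0 and all 3 upstream regions below 0. Downstream, the region at 16.6 kb had 186 counts in WT and 317 in TCKO (1.48, 1.23 to 1.75), and the region at 11.1 kb 46 and 86 (1.60, 1.11 to 2.13). These were the 2 regions of the 152 whose interval lay wholly past 2-fold on the higher side, which 3.58% of the flanking regions of all genes did. Only the first held the AP-1 consensus. The region at 11.1 kb had no summit in the WT list, so it was in the table only through TCKO. The region at 19.4 kb had 161 and 142 counts (0.53, 0.21 to 0.86). Upstream, the region next to the promoter, 1.1 kb away, had 2179 and 1086 counts (-0.29, -0.39 to -0.18), and the region at 21.2 kb 187 and 68 (-0.74, -1.14 to -0.34). With a flank of 10 kb, which left out most of the downstream regions, the flanking ratio of *Jun* was -0.17 and promoter minus flank 0.012.

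*Junb* (ENSMUSG00000052837, chr8:84974484-84978718, minus strand) encodes a Jun protein needed for bone formation in mice. At its promoter region WT had 1069 counts and TCKO 502 (-0.37, -0.53 to -0.22). The region with most counts, 2.2 kb from the start beyond the 3′ end of the coding transcript and within the span of a non-coding transcript of the gene, had 2193 and 1075 (-0.31, -0.42 to -0.21). The region 1.2 kb upstream had 1806 and 897 (-0.29, -0.41 to -0.18). The intervals of the promoter and of these strong regions next to it overlapped. The 15 flanking regions summed to 10093 and 5577 (-0.14, -0.19 to -0.091), and promoter minus flank was -0.23 (-0.39 to -0.074). The lowest ratio of the locus was 18.6 kb downstream, in an intron of *Rnaseh2a*, with 490 and 204 counts (-0.55, -0.78 to -0.31). A region with the AP-1 consensus 7.0 kb upstream lay on the other side of 0, with 762 and 588 counts (0.34, 0.19 to 0.50).

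*Jund* (ENSMUSG00000071076, chr8:70698949-70700616, plus strand) encodes the Jun protein that is present in most cells without stimulation. Its promoter region went from 2850 to 1484 counts (-0.22, -0.31 to -0.13). The 8 flanking regions held 4071 and 2230 (-0.15, -0.23 to -0.077). The promoter and the flank did not separate (-0.073, -0.19 to 0.044). Single regions diverged upstream. The region at 16.5 kb, with the AP-1 consensus, had 1514 and 763 counts (-0.27, -0.40 to -0.15). The region at 14.4 kb, also with the consensus, had 107 and 111 (0.76, 0.39 to 1.15), and the region at 11.1 kb had 104 and 32 (-0.97, -1.55 to -0.42). This region at 11.1 kb had no summit in the TCKO list, so it was in the table only through WT. Downstream, the region at 11.7 kb, in an exon of *Iqcn*, had 229 and 200 (0.52, 0.25 to 0.80).

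*Batf* (ENSMUSG00000034266, chr12:85686669-85709087, plus strand) encodes a small Jun partner best known in lymphocytes. WT had 369 counts at its promoter region and TCKO 161, the lowest promoter ratio of the 10 genes (-0.48, -0.75 to -0.21). The WT list had 4 summits in it and the TCKO list 2. The 14 flanking regions held 3095 and 2000 (0.087, 0.0062 to 0.17), and the difference of -0.56 (-0.84 to -0.29) was the largest of the 10 genes. Over the 12 alternatives it stayed between -0.66 and -0.52. Most of the flank was an intron region 18.9 kb from the start (chr12:85705114-85706097), with 1977 and 1311 counts (0.12, 0.024 to 0.23). The region 23.6 kb upstream had 255 and 109 counts (-0.51, -0.83 to -0.19), and the region 42.9 kb downstream of the start had 130 and 113 (0.51, 0.15 to 0.88). The intron region at 6.8 kb, printed above, had only 17 and 33 counts (1.62, 0.84 to 2.51).

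*Batf3* (ENSMUSG00000026630, chr1:191097847-191108945, plus strand) encodes a relative of Batf known from dendritic cells, and its promoter regions had the fewest counts of the 10 genes. The region 0.9 kb upstream had 158 counts in WT and 122 in TCKO (0.34, 0.0042 to 0.68), and the region over the start 97 and 41 (-0.52, -1.05 to -0.0012). The summed promoter ratio of 0.071 (-0.21 to 0.35) thus joined regions that lay on opposite sides of 0. The region over the start had no summit in the TCKO list, so it was in the table only through WT. Flanking regions held 1831 and 1186 counts (0.091, -0.015 to 0.20), of which the strongest, 22.7 kb upstream in an intron of *Nsl1*, had 343 and 185 (-0.17, -0.43 to 0.084). Downstream, the regions at 27.9 kb (247 and 214 counts, 0.51) and 29.8 kb (57 and 82, 1.23) were higher and the region at 24.6 kb (82 and 23, -1.10) was lower. Regions with the AP-1 consensus lay on both sides of 0. Upstream they were at -0.57 (-1.21 to 0.045) and -0.41 (-1.02 to 0.19), 5.0 and 2.0 kb from the start. Neither had a summit in the TCKO list, so both were in the table only through WT. The others were at 0.40 (0.023 to 0.78) in an intron and 0.37 (-0.0045 to 0.75) downstream (25.7 kb). Only the interval of the intron region excluded 0.

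*Atf3* (ENSMUSG00000026628, chr1:191170296-191218039, minus strand) encodes a stress-induced factor that pairs with Jun proteins. The main promoter region went from 2541 to 1501 counts (-0.042, -0.13 to 0.050), and it lay over a start within the span of the gene. Just before this start, in the intron of the longer transcript, the ratio was lower in each of 3 successive regions. The region 0.8 kb before it had 137 and 57 counts (-0.54, -0.99 to -0.10), the region at 1.7 kb 194 and 71 (-0.73, -1.12 to -0.34) and the region at 2.9 kb 265 and 67 (-1.26, -1.65 to -0.88). The region at 2.9 kb had the lowest ratio of all 152 regions. None of these 3 regions had a summit in the TCKO list, so they were in the table only through WT. Their lower ratios are therefore a description. The next regions, 3.4 and 6.8 kb before the start, were at -0.28 (-0.70 to 0.13) and 0.29 (0.028 to 0.55). Summed over the locus, the promoter (-0.064, -0.15 to 0.026) and the flank (-0.055, -0.12 to 0.011) did not separate. The flanking region with most counts, 6.7 kb upstream, had 1203 and 645 (-0.18, -0.32 to -0.044). A region with the AP-1 consensus 4.2 kb before the upstream start lay on the other side of 0, with 581 and 446 counts (0.34, 0.16 to 0.51).

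**Figure D4:**
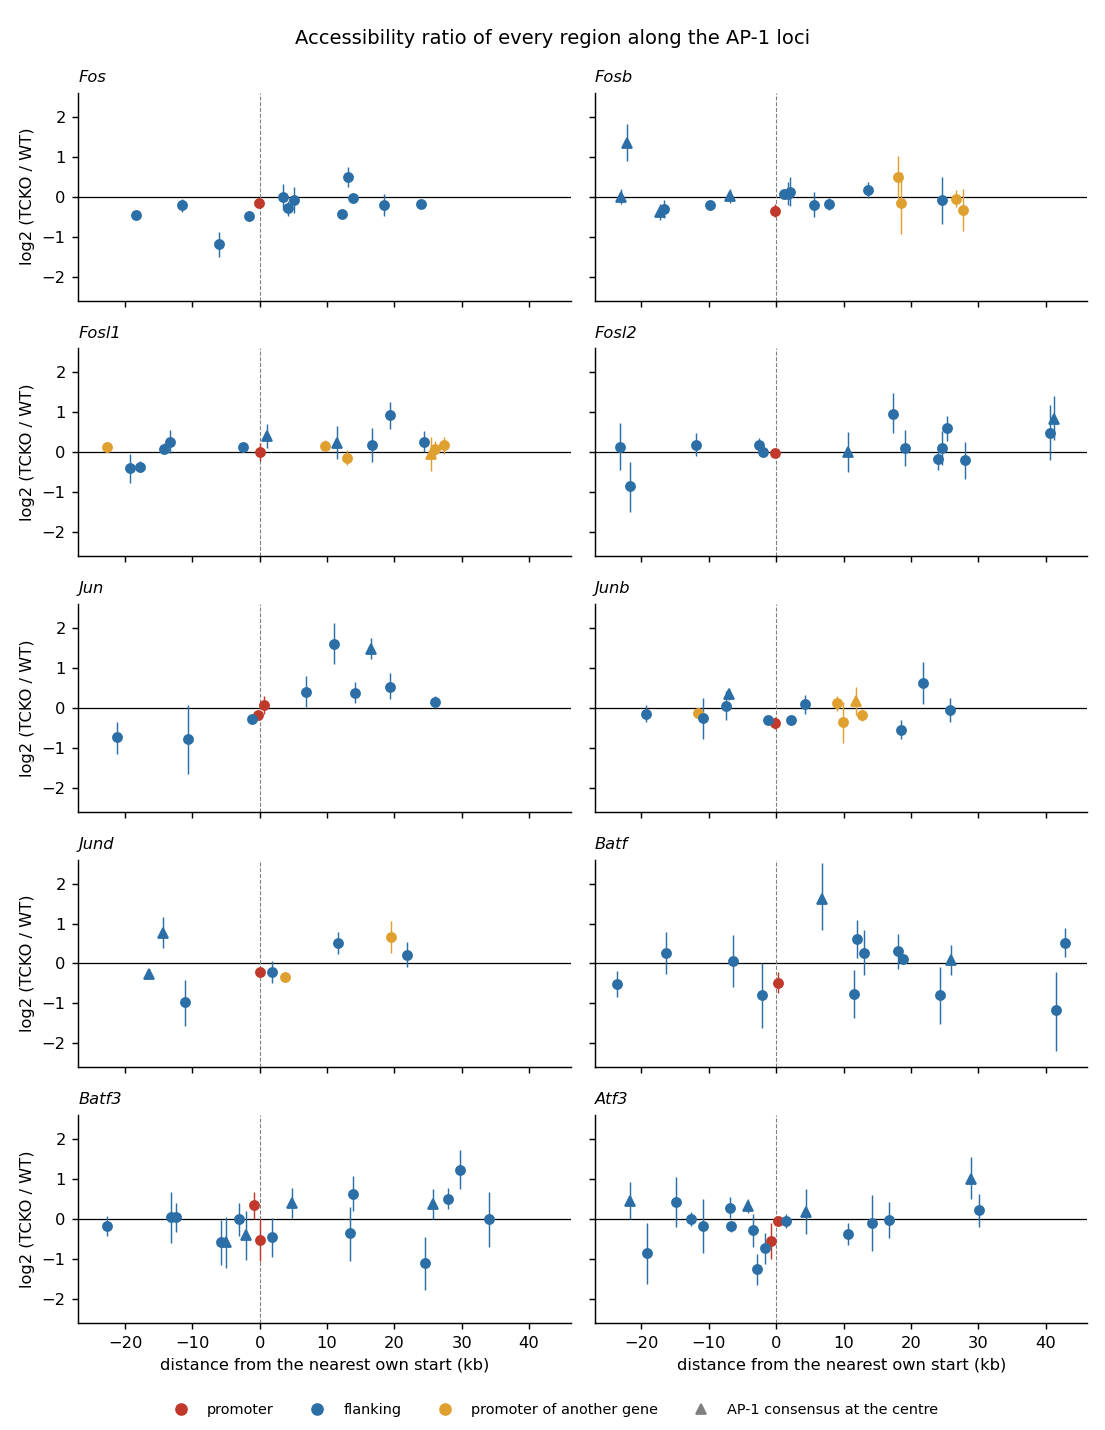
Log2 ratio of every region of the 10 loci against its distance in kb from the gene's nearest start, downstream positive, with 95% counting intervals. Promoter regions are red, other flanking regions blue and promoters of other genes yellow, and triangles mark the AP-1 consensus. At *Jun* the regions left of the start lie below 0 and those right of it above 0.

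The side of the gene on which a region lay was compared for all 10 genes, after the *Jun* pattern had been seen, with regions inside the gene and promoters of other genes left out. The summed downstream ratio was above the summed upstream ratio at 9 of 10 genes, all but *Junb*, where 49.4% of 13152 genes had this order. The count includes *Jun*, which prompted the comparison. *Batf3* and *Atf3* lie on chromosome 1 with their downstream sides facing each other, so the 10 genes are not all separate cases. The interval of the downstream minus upstream difference was above 0 at 7 genes, against 24.6% of all genes, and below 0 at none, against 26.3%. The deepest *Junb* region, 2.2 kb from the start (2193 and 1075 counts, -0.31), counted as inside the gene and was left out. It lies beyond the 3′ end of the coding transcript, and the *Junb* difference with it placed downstream was not computed. The median difference was 0.35 at the AP-1 genes and -0.011 at all genes, of which the middle 90% lay between -1.03 and 0.97. *Jun* had the widest difference, 0.84 (0.70 to 0.98), with 2406 and 1168 counts upstream and 1665 and 1447 downstream. *Batf3* (0.55, 0.33 to 0.78), *Fosl1* (0.46, 0.28 to 0.64), *Jund* (0.39, 0.19 to 0.59), *Batf* (0.37, 0.035 to 0.71), *Atf3* (0.32, 0.043 to 0.60) and *Fos* (0.27, 0.19 to 0.34) followed. *Fosl2* (0.10, -0.083 to 0.28), *Fosb* (0.068, -0.068 to 0.20) and *Junb* (-0.060, -0.22 to 0.10) had intervals that included 0.

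**Figure D5:**
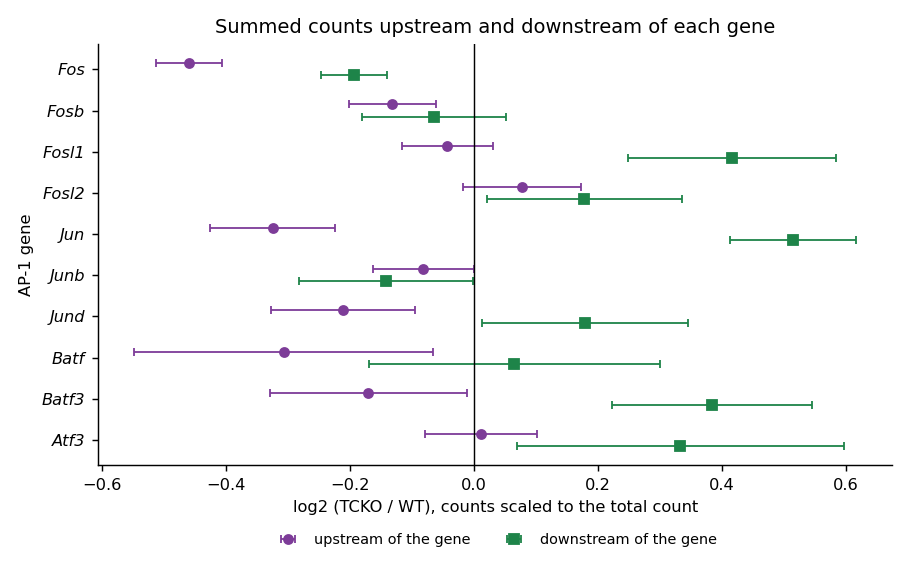
Log2 ratio of TCKO over WT for the summed regions upstream (circles) and downstream (squares) of each AP-1 gene, with 95% counting intervals. The downstream point lies right of the upstream point at every gene but *Junb*.

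By region, the 47 upstream regions had a median ratio of -0.18 and the 48 downstream regions of 0.16. The 95% intervals of these medians, -0.31 to 0.017 upstream and -0.043 to 0.38 downstream, both included 0 and overlapped. No such medians by side are given for the regions of all genes. The 27 regions inside the genes had a median of 0.075 and the 17 promoters of other genes of -0.040. Upstream regions were the deeper ones, with a median of 385 counts against 297 downstream. After loess the medians were -0.15 upstream and 0.082 downstream.

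The peak lists, which were called on the merged samples of each genotype, gave a summit in both genotypes for 95 of the 152 regions, in WT alone for 50 and in TCKO alone for 7. For the flanking regions this was 61.2% in both, 33.8% in WT alone and 5.04% in TCKO alone, beside 55.3%, 34.8% and 9.90% of the flanking regions of all genes. Promoter regions had a summit in both at 10 of 13 (76.9%, against 79.1% of promoter regions of all genes). In the 95 shared regions the median log2 ratio of the tallest unscaled pileups was -0.39, a value that follows the depth of the libraries. That of the fold enrichment over local background was -0.11, and 0.048 for the 10 shared promoter regions. At the main *Jun* promoter region the pileup was 87 reads in WT and 85 in TCKO, and at that of *Junb* 66 and 42. The *Jun* region 16.6 kb downstream was taller in TCKO, with 23 reads in WT and 39 in TCKO.

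Other genes of the pathway were summed in the same way. Of 32 other basic leucine zipper genes 31 had a promoter region, with a median ratio of -0.13, an interval below 0 at 16 and above 0 at 1, beside the 38.0% and 12.0% of all genes. The lowest were *Jdp2*, a repressor that pairs with Jun (2496 and 1146 counts, -0.41), *Atf6*, a sensor of endoplasmic reticulum stress (-0.31), and *Cebpa*, a factor of myeloid and fat cells (-0.31). The highest were *Nfe2l3* (0.22), the small Maf gene *Mafg* (0.21) and *Bach1*, a repressor of haem genes (0.094). The promoter was below the flank at 17 of 31 of these genes (54.8%), beside 62.8% of all genes.

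Of 22 upstream regulators and other immediate early genes, all with a promoter region, 6 had an interval below 0 and 1 above 0, with a median of -0.066. The shares among all genes were 38.0% below and 12.0% above 0. The lowest were *Mapk14*, the p38 kinase gene (-0.23), *Dusp6*, a phosphatase of ERK (-0.23), and *Myc* (-0.18), and the highest were *Ier5* (0.12), *Egr3* (0.12) and *Ier3* (0.098). Of 15 genes known as AP-1 targets 6 had an interval below 0 and 5 above 0, beside the same 38.0% and 12.0% of all genes. Their median was -0.042. The lowest with at least 200 counts were *Mmp13*, the collagenase of bone (212 and 92 counts, -0.48), *Il6* (-0.38) and *Ccnd1* (-0.32). The highest were *Spp1*, which encodes the bone matrix protein osteopontin (255 and 256 counts, 0.72), *Plau* (0.28) and *Ptgs2* (0.26). The widest ratio, 2.08 (1.51 to 2.72), was at *Mmp10*, a stromelysin gene with only 30 and 79 counts, named here after its value was seen.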

How the data were processed

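ATAC-seq reads of primary osteoblasts had been aligned end to end to GRCm38 with STAR 2.7.0e, keeping uniquely mapped reads with fewer than 3 mismatches. Removal of duplicate or mitochondrial reads and a shift for the transposase are not given in the sources used here. Replicates were merged by the authors, who called peaks with MACS2. The authors deposited raw read counts per region, in a single merged column for each genotype, which bedtools multicov had counted. No other sample column was left aside. The deposited peak lists give for each summit a fold enrichment over local background and the −log10 p-value, from which pileups were solved (whole within 0.02 reads at 100% of summits).

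The edgeR test planned could not be run on merged columns, so no p-value was computed. Annotation was GENCODE M21. The 21 chromosomes of the table ended within those of the GRCm38 reference. Intervals of a difference between 2 ratios came from the 4 counts, with 0.5 added to each. Alternative scalings were TMM (edgeR 4.0.16), DESeq2 1.42.0 size factors, none, the peak caller background, loess (span 0.3, statsmodels 0.14.6) and the promoter total. Scripts ran in R 4.3.3 and Python 3.11.15 and were tested on simulated counts.

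The members and the lists of other genes and markers were chosen with earlier results of these data known. The text names all 10 members, their promoter and flanking region with most counts, the 8 lowest and 8 highest regions with at least 200 counts, and of each list the 3 lowest and 3 highest promoter ratios with at least 200 counts, and says where a region outside these was chosen after its values were seen. Other single regions named under each gene were also chosen after their values were seen.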

Additional observations from a re-analysis of the deposited data

How the results depend on the processing

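No paired analysis was possible because each genotype was a single merged column; for the same reason no replicate could be left out. The count of 9 genes with the promoter below the flank ranged from 6 to 9 over the 12 settings that could change it. The median ratios of promoter and flanking regions were -0.90 and -0.70 without scaling, -0.80 and -0.59 with the peak caller background, and the flanking median was 0.12 when scaled to promoter regions. The flanking median was also below 0 with TMM (-0.062), DESeq2 size factors (-0.051) and loess (-0.049). Regions at least 2-fold lower and higher numbered 40 and 0 without scaling, 26 and 1 with the peak caller background, 2 and 2 with a flank of 10 kb, 13 and 15 with a 1.5-fold limit, 0 and 2 with a 3-fold limit and 0 and 2 with the interval wholly past 2-fold. They numbered 7 and 5 with loess, 7 and 9 with a flank of 50 kb and 2 and 5 with 10 counts added. These counts cover 13 promoter regions and 139 flanking regions, or 76 flanking regions with a flank of 10 kb and 244 with 50 kb. The shares that follow are of flanking regions alone. Among flanking regions of all genes the lower and higher shares were 26.9% and 2.88% without scaling and 21.2% and 3.58% with the peak caller background. They were 4.87% and 11.6% with a flank of 10 kb, 14.1% and 22.9% with a 1.5-fold limit and 0.813% and 3.70% with a 3-fold limit. With the interval wholly past 2-fold they were 0.718% and 3.58%, and with loess 6.30% and 8.87%. A flank of 50 kb gave 4.81% and 11.8%, and 10 counts added gave 3.06% and 9.12%. Of values whose interval excluded 0, flanking ratios turned below 0 at *Fosl1* (-0.65), *Fosl2* (-0.59), *Jun* (-0.64) and *Batf* (-0.63) without scaling and at the same genes (-0.54, -0.49, -0.53 and -0.52) with the peak caller background, at *Fosl1* with TMM (-0.0066) and at *Jun* with a flank of 10 kb (-0.17). That of *Fosb* turned to 0.038 when scaled to promoter regions. Loess turned the promoter ratios of *Fos* (0.0068) and *Jun* (0.022) and the promoter minus flank difference of *Fosl2* (0.066). A promoter of 2 kb turned the difference of *Fos* (-0.0062) and *Fosb* (0.045), and a flank of 10 kb that of *Jun* (0.012). Values whose interval included 0 changed sign too. The promoter ratios of *Fosl1* and *Batf3* did so without scaling (-0.71 and -0.64), with the peak caller background (-0.60 and -0.53), with TMM (-0.073 and -0.0041) and with loess (-0.0002 and -0.054), that of *Fosl1* with DESeq2 size factors (-0.063) and that of *Batf3* with a promoter of 2 kb (-0.12). Those of *Fosl2* and *Atf3* did so with loess (0.19 and 0.10) and scaled to promoter regions (0.085 and 0.044). The *Batf3* flank did so without scaling (-0.63), with the peak caller background (-0.52), with loess (-0.032) and with a flank of 10 kb (-0.051), and the *Atf3* flank scaled to promoter regions (0.052). Promoter minus flank did so at *Jund* (0.052) and *Atf3* (0.15) with loess, at *Fosl1* (0.082) with a promoter of 2 kb, and at *Batf3* (0.12) and *Atf3* (0.036) with a flank of 10 kb. A flank of 10 kb holds fewer regions, and a scaling factor moves every ratio alike; for the rest the cause was not tested. The comparison of sides was repeated under 7 settings chosen after the data were seen. The downstream ratio was above the upstream ratio at 8 of 10 genes with loess (not *Fosl2* and *Junb*), 8 of 10 with a flank of 50 kb (not *Fosb* and *Fosl2*), 8 of 9 with a flank of 10 kb (not *Atf3*), 10 of 10 with promoters of other genes, and 9 of 10 (not *Junb*) in the other 3. The share of flanking regions with the AP-1 consensus was 23.7% over whole regions, beside 23.8% of flanking regions of all genes. Depth limits the *Batf*, *Batf3* and *Fosl1* promoters most.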
